A study of Mus musculus with 4 samples.

Results

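The genes described here are 42 genes of the cell cycle and of DNA replication, taken from the 46078 genes of the count table as those whose Ensembl identifier carries a symbol on a fixed list. They comprised 24 genes whose products act in G2 phase and mitosis, 17 that act in or prepare S phase, and Stmn1, a microtubule-destabilising protein that was put in neither class. All 42 had enough counts to be tested. Poly(A) RNA was sequenced in 4 libraries of sorted mouse cells, gated to hold CD103-positive dendritic cells (DCs). The Ctrl group held 2 libraries from mice with the CD11c-cre transgene alone, and the Il33flx group held 2 libraries from CD11c-cre-Il33flx/flx mice, in which both copies of Il33 are flanked by loxP sites. Both groups carried the Cre transgene, driven by the CD11c promoter, which is active in DCs and in some other myeloid cells. Every mouse, in both groups, had received EL4-Flt3 tumour cells 10 days earlier, and spleen and mesenteric lymph node cells were sorted as CD45+ CD64- CD11b+ MHCII+ CD103+. Nothing in the labels tells if both libraries of a group came from different mice. The p-values therefore measure library-to-library spread, and that spread may be technical.

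Cell cycle genes are transcribed in waves. E2F transcription factors switch on the genes for DNA synthesis near the start of S phase, among them the MCM helicase subunits that unwind DNA and the enzymes that make deoxynucleotides. Genes for mitosis are switched on later, in G2, by the MuvB complex with B-Myb and FOXM1, which acts through a promoter element called the cell cycle genes homology region (CHR), often beside CCAAT boxes bound by NF-Y. Conventional DCs arise from dividing precursors, and part of the DC population in lymphoid tissue is still cycling.

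The libraries held 67707682 to 81217828 gene counts. Il33 itself had 4, 8, 4 and 0 counts in Ctrl 1, Ctrl 2, Il33flx 1 and Il33flx 2, too few to check the genotype labels. The genes of the gate were detected in every library except that Fcgr1, which encodes CD64, stood low at 3.66 to 5.50 CPM (gene counts scaled to a common library total with TMM factors). Ptprc (CD45) stood at 563 to 1012 CPM, Itgam (CD11b) at 97.8 to 128, Itgae (CD103) at 56.8 to 116 and the MHC class II gene H2-Ab1 at 33060 to 42770. Xcr1 and Clec9a, markers of the cDC1 subset of conventional DCs, stood at 506 to 841 and 99.8 to 120 CPM. On the first principal component of all tested genes, which held 49.97% of the variance, Ctrl 1 lay at -70.1 and the other 3 libraries between 18.8 and 26.2.

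The promoters of the members are shown first, since the shares of some motifs differ between the classes without use of the expression values. RefSeq promoter windows of GRCm38.p6, 250 bases before to 50 bases after a gene's start, were available for 20 mitotic and 14 S phase members. The CHR-type motif TTTGAA was searched on both strands. It lay in the windows of 15 of the 20 mitotic members (75.0%) and of 1 of the 14 S phase members (7.14%), Mcm2, against 20.2% of 27025 genes with a window. Each of those 15 mitotic windows also held CCAAT on either strand, a pair found in 7.97% of all genes. The mitotic genes with the pair were Aurka, Bub1b, Ccnb2, Cdc20, Cdca3, Cdca8, Cdk1, Cenpa, Cenpf, Kif11, Kif23, Mki67, Plk1, Top2a and Ube2c. Of E2F-type motifs, also searched on both strands, GCGGGAA lay in 6 of 14 S phase and 0 of 20 mitotic windows and in 5.29% of all genes. The motif TTGGCGC lay in 5 S phase and 3 mitotic windows and in 2.85% of all genes, and TTCGCGC in 4 S phase windows, 1 mitotic window and 1.81% of all genes. At least 1 of these 3 lay in 8 of the 14 S phase windows (57.1%), those of Cdc6, Cdt1, Mcm3, Mcm5, Mcm6, Mcm7, Rrm1 and Uhrf1. The share was 3 of 20 for mitotic windows (15.0%), those of Ccnb1, Cdk1 and Mki67, and 9.20% for all genes. Matches to TTGGCGC can overlap those to TTCGCGC, as can matches on opposite strands. A second CHR form, TTTAAA, did not separate the classes, with 7 of 20 mitotic windows, 5 of 14 S phase windows and 14.9% of all genes. These matches describe the letters of the windows and not binding.

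The following stretches run from 170 bases before to 30 bases after the start, 5′ to 3′ on the gene's strand. Capitals mark complete matches to any of the motifs above, on either strand. The first 5, for Cdk1 (the mitotic kinase, chr10:69352883-69353082, minus strand), Ccnb2 (its partner cyclin B2, chr9:70421525-70421724, minus), Cdc20 (activator of the anaphase-promoting complex, chr4:118437314-118437513, minus), Top2a (DNA topoisomerase II alpha, chr11:99024160-99024359, minus) and Cenpf (a kinetochore protein, chr1:189688057-189688256, minus), show the mitotic pattern.
Cdk1: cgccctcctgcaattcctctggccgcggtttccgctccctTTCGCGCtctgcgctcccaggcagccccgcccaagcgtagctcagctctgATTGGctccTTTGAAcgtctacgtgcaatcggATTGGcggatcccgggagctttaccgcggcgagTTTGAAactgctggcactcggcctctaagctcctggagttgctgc
Ccnb2: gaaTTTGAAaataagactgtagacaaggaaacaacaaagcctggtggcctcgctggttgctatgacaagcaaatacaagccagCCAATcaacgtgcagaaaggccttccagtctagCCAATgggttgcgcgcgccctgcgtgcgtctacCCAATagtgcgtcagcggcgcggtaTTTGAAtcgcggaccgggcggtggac
Cdc20: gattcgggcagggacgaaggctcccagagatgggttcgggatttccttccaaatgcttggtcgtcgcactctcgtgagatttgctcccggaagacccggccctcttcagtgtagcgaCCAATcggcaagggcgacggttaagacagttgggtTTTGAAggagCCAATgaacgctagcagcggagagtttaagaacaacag
Top2a: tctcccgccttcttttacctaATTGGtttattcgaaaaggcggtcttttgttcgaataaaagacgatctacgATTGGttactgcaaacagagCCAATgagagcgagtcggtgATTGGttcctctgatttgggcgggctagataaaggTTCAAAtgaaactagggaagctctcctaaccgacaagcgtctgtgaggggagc
Cenpf: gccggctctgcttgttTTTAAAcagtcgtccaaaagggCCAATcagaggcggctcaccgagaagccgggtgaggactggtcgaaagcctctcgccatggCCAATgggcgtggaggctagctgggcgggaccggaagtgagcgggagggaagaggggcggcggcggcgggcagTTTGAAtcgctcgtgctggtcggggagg
The TTTGAA match nearest to the start began at position -15 in Cdk1, -18 in Cdc20 and -23 in Top2a (there as TTCAAA, on the opposite strand), and at 3 in Cenpf and 5 in Ccnb2. The S phase pattern is shown by 3 subunits of the MCM helicase, Mcm3 (chr1:20820283-20820482, minus), Mcm5 (chr8:75109339-75109538, plus) and Mcm6 (chr1:128359676-128359875, minus), which hold E2F-type matches and CCAAT but no TTTGAA.
Mcm3: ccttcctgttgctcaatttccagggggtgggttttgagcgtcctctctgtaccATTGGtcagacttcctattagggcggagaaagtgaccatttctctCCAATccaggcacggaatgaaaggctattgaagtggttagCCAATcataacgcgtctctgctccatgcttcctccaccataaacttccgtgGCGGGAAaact
Mcm5: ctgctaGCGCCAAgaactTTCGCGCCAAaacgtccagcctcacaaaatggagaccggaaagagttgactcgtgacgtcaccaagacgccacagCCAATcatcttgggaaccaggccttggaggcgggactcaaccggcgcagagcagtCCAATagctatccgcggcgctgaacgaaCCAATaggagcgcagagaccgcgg
Mcm6: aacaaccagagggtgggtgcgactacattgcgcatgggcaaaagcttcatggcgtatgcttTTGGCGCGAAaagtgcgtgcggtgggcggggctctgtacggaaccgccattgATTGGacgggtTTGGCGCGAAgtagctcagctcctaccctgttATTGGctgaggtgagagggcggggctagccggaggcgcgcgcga

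Levels of different genes were compared as CPM per kilobase of merged exons, as mean ± SD of the 4 libraries. The helicase subunits led: Mcm5 stood at 126 ± 11.3, Mcm3 at 121 ± 7.13 and Mcm6 at 116 ± 7.80. Their ranges over the libraries overlapped, though Mcm5 stood above Mcm6 within each library. Cdc20 at 92.7 ± 11.4 and Ccnb2 at 85.8 ± 24.2 followed, Mcm7 stood at 70.8 ± 5.97, and Stmn1 at 61.9 ± 16.7 and Mcm4 at 61.8 ± 10.5 lay within each other's spread. The lowest were Gins2, a subunit of the GINS part of the replicative helicase, at 7.25 ± 0.811, then Cenpe at 3.76 ± 1.82, Ccne2 at 2.25 ± 0.828 and Cenpf at 2.13 ± 0.623. S phase members had a median of 45.2 CPM per kilobase (2.25 to 126) and mitotic members one of 23.9 (2.13 to 92.7). With the longest coding transcript as the length, a choice made after the data had been seen, these medians were 64.6 and 33.8. Mcm3, Mcm5 and Mcm6 were still the first 3, but Stmn1 (112), Mcm7 (106) and Mcm2 (103) then stood above Cdc20 (96.6) and Ccnb2 (85.8). Cdca8 moved from place 24 to 10, Cenpa from 28 to 15 and Tk1 from 29 to 17.

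**Figure D1:**
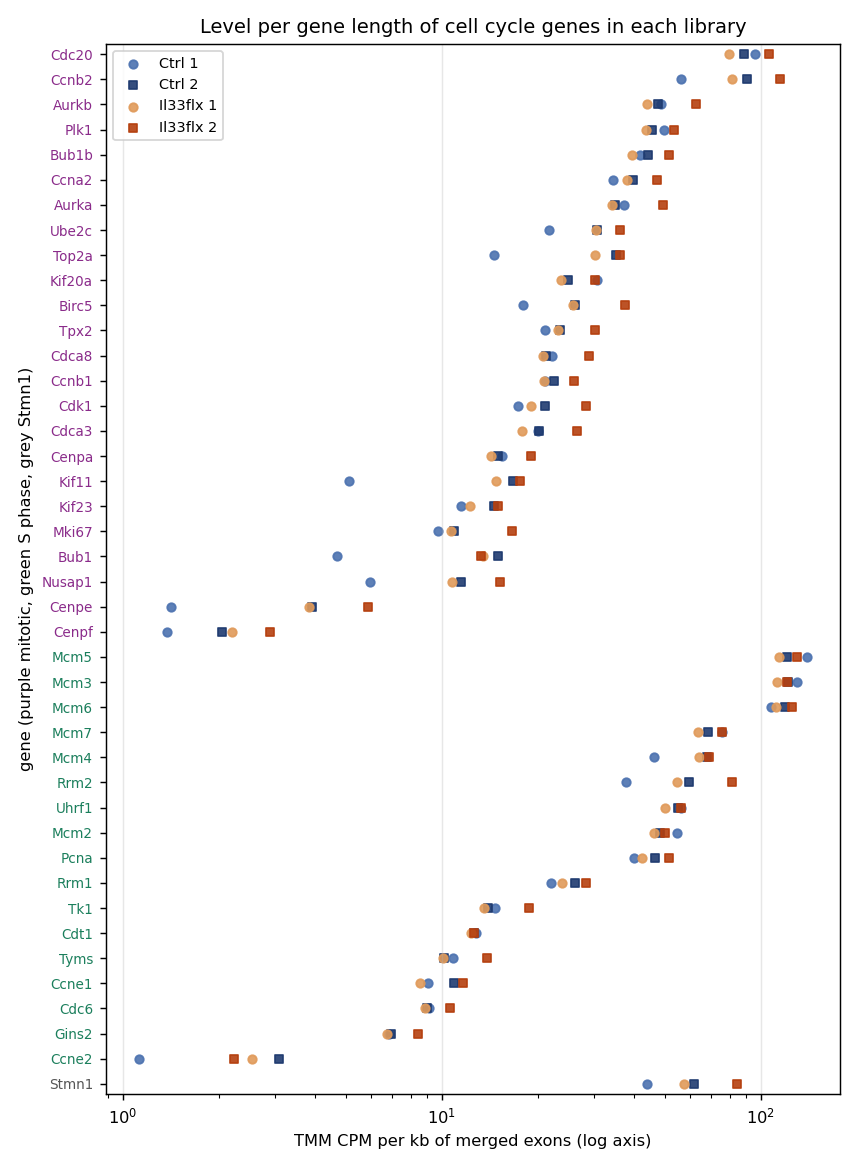
Level of each of the 42 genes in each of the 4 libraries, in CPM per kilobase of merged exons on a log axis; each point is 1 library, and gene names are purple for mitotic, green for S phase and grey for Stmn1. Il33flx 2 was the highest library in 35 of the 42 genes, and Ctrl 1 or Il33flx 1 was the lowest in each.

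No member passed the quasi-likelihood test of edgeR between Il33flx and Ctrl, in which 0.00667% of all 14995 genes tested (1 gene) passed an adjusted p of 0.05. The members' adjusted p was 0.995 or above. At an unadjusted p under 0.05 there were also 0 members, against 3.26% of all genes, and DESeq2 called 0 members, against 0.255% of the genes to which it gave an adjusted p. Values were nonetheless placed mostly to one side. The log2 fold change of Il33flx over Ctrl was above 0 in 35 of 42 members (83.3%), against 51.8% of all genes, with a median of 0.16 against 0.01. Mitotic members had a median of 0.24, with 23 of 24 above 0, and S phase members one of 0.11, with 11 of 17 above 0. The 95% interval held 0 for each of the 42, and it lay within 2-fold either way for 31 of them (16 mitotic, 15 S phase). The design therefore left room for changes over 2-fold in the other 11. Bulk libraries do not tell the share of cycling cells from the level of these transcripts per cycling cell.

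**Figure D2:**
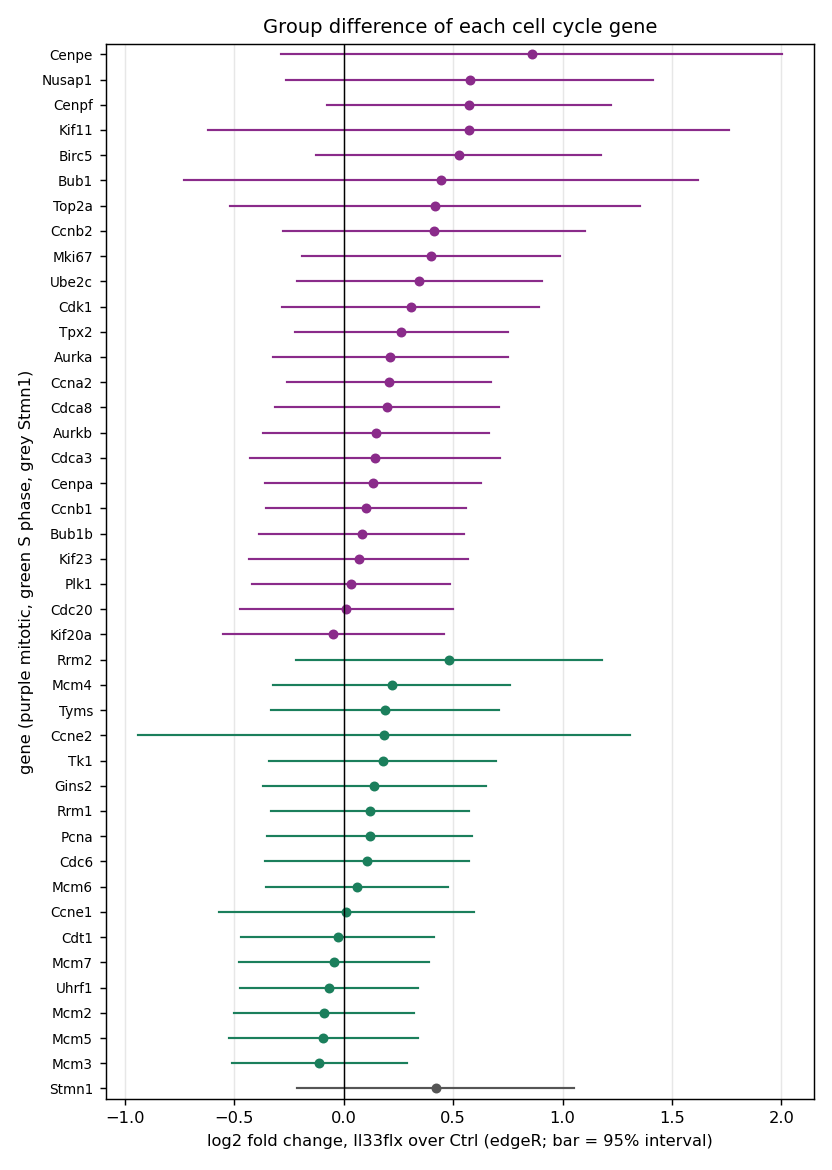
Log2 fold change of Il33flx over Ctrl for each gene (points) with its 95% interval from edgeR (bars), mitotic genes in purple, S phase genes in green and Stmn1 in grey. Each of the 42 intervals crosses 0, and 23 of the 24 mitotic points lie to the right of it.

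Among the mitotic genes, Cenpf had the smallest p, a gene of the kinetochore, the structure that ties chromosomes to the spindle. Values are given throughout in CPM in the order Ctrl 1, Ctrl 2, Il33flx 1, Il33flx 2, and differences as the log2 fold change of Il33flx over Ctrl ± SE of 2 libraries against 2. Cenpf (ENSMUSG00000026605, chr1:189640606-189688086 on the minus strand of GRCm38) encodes centromere protein F and stood at 21.3, 31.7, 34.0 and 44.7, a difference of 0.57 ± 0.27 with an unadjusted p of 0.0753 in edgeR (adjusted p 0.995). It was the only member with both Il33flx libraries above both Ctrl libraries, an order that 15.4% of all genes showed. The gap between Ctrl 2 and Il33flx 1 was small beside that between the libraries of either group. Cenpe (ENSMUSG00000045328, chr3:135212537-135273611 on the plus strand of GRCm38), a kinesin motor of the kinetochore, stood at 12.2, 33.9, 33.0 and 50.5, a difference of 0.86 ± 0.48 (interval -0.29 to 2.00). Ctrl 1 was far below the other 3 libraries and Ctrl 2 lay just above Il33flx 1. Cenpa, the histone H3 variant of centromeres, had values of 90.4, 88.0, 83.4 and 112 and a difference of 0.13 ± 0.21. Its libraries overlapped, with only Il33flx 2 apart from the others. Bub1, a kinase of the spindle checkpoint, stood at 20.4, 65.2, 58.8 and 57.7. Ctrl 1 alone was low, and the other 3 libraries lay close together. Its relative Bub1b, which encodes the checkpoint protein BubR1, stood at 179, 189, 169 and 220 and showed no such gap, with a difference of 0.08 ± 0.19.

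The chromosomal passenger complex corrects attachments of chromosomes to the spindle and then directs cell division. Its subunit survivin, encoded by Birc5 (ENSMUSG00000017716, chr11:117849251-117855743 on the plus strand of GRCm38), stood at 61.0, 88.8, 88.0 and 128, a difference of 0.53 ± 0.27 with an unadjusted p of 0.0967 in edgeR (adjusted p 0.995). Ctrl 2 was a little above Il33flx 1, so that the groups overlapped and the difference came from the lowest and the highest library. Aurkb, the kinase of the complex, stood at 143, 140, 130 and 184, and Cdca8, which encodes borealin, at 115, 110, 107 and 150. In both, Il33flx 2 was high and the other 3 libraries differed little. Their differences were 0.15 ± 0.21 and 0.20 ± 0.21. Aurka, the related kinase of spindle poles, stood at 94.4, 88.2, 86.8 and 125, and its activator Tpx2 at 98.4, 110, 108 and 142, again with Il33flx 2 as the highest library. Plk1, a kinase that acts from mitotic entry to cell division, was among the members with the smallest difference, 0.03 ± 0.19, with values of 109, 100, 96.3 and 118.

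Cyclin-dependent kinase 1 and its cyclins drive entry into mitosis. Cdk1 stood at 85.4, 104, 93.9 and 140, a difference of 0.31 ± 0.24. The 2 Ctrl values lay on either side of Il33flx 1, and Il33flx 2 was above all of them. Ccnb1, cyclin B1, stood at 89.2, 94.9, 88.1 and 109 and differed by 0.10 ± 0.19, while Ccnb2 stood at 86.4, 139, 124 and 176 and differed by 0.41 ± 0.29. Ccna2, cyclin A2, which acts in S phase as well as in G2, had values of 141, 162, 155 and 194. Ctrl 2 exceeded Il33flx 1 in all 3 cyclins, so none separated the groups. Cdc20, which starts cyclin destruction through the anaphase-promoting complex, stood at 179, 166, 149 and 199, and its difference of 0.01 ± 0.20 was the one nearest 0 among mitotic genes. Ube2c, the ubiquitin-conjugating enzyme of that complex, stood at 56.2, 80.0, 79.0 and 94.0 and differed by 0.34 ± 0.23. Cdca3, a cell cycle regulator linked to destruction of the Wee1 kinase, had values of 57.6, 57.8, 51.1 and 76.4, with Il33flx 1 the lowest and Il33flx 2 the highest.

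Spindle motors and chromosome organisers held several of the members that differed most between the Ctrl libraries. Kif11, the kinesin that pushes spindle poles apart, stood at 38.3, 125, 110 and 132, and Nusap1, which bundles spindle microtubules, at 24.1, 46.7, 43.7 and 61.8. In both, Ctrl 1 was well below the other 3 libraries, and the differences of 0.57 ± 0.50 and 0.58 ± 0.35 came with wide intervals (-0.62 to 1.76 and -0.26 to 1.41). The kinesins of cell division, Kif20a at 134, 108, 102 and 131 and Kif23 at 90.9, 115, 97.2 and 119, showed no such gap. Kif20a, at -0.05 ± 0.21, was the only mitotic member with a value below 0. Top2a, which untangles chromosomes and is made from S phase on, stood at 132, 318, 273 and 327, a difference of 0.41 ± 0.39. Ctrl 1 was again far below, and the other 3 lay together. Mki67 (ENSMUSG00000031004, chr7:135689784-135716361 on the minus strand of GRCm38), the Ki-67 protein that coats mitotic chromosomes and marks cycling cells, stood at 97.9, 110, 108 and 167, a difference of 0.40 ± 0.25. Here Il33flx 2 stood apart, and the other 3 libraries lay within a narrow band. Stmn1, which promotes microtubule disassembly, had values of 84.6, 119, 111 and 162 and a difference of 0.42 ± 0.26, with Ctrl 1 low and Il33flx 2 high.

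The S phase members included the 6 subunits of the MCM2-7 helicase. Mcm2 stood at 379, 337, 322 and 350, Mcm5 at 558, 481, 454 and 519 and Mcm7 at 334, 302, 281 and 335, with differences of -0.09 ± 0.17, -0.09 ± 0.18 and -0.04 ± 0.18. In each of these 3, Il33flx 1 was the lowest library, and Ctrl 1 and Il33flx 2 were the 2 highest. Mcm3 (ENSMUSG00000041859, chr1:20802968-20820312 on the minus strand of GRCm38) stood at 487, 457, 422 and 452, a difference of -0.11 ± 0.17 with an interval of -0.51 to 0.29. Mcm3 and Cdt1 were the only members with both Il33flx libraries below both Ctrl libraries, an order that 14.9% of all genes showed. Mcm6 stood at 504, 555, 519 and 585 and differed by 0.06 ± 0.17. Mcm4 stood at 166, 244, 230 and 247 and differed by 0.22 ± 0.23, the one subunit in which Ctrl 1 lay far below the other 3 libraries.

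Licensing factors load the helicase at origins before S phase. Cdt1 (ENSMUSG00000006585, chr8:122568015-122573554 on the plus strand of GRCm38) was the steadiest member, at 40.3, 39.8, 38.8 and 39.7, a difference of -0.03 ± 0.18. The gap between its groups was far smaller than its SE. Its partner Cdc6 stood at 47.7, 47.0, 46.3 and 55.6 and Gins2 at 28.1, 28.4, 27.6 and 34.7, and both were set apart only by a higher Il33flx 2. The E cyclins drive the step into S phase. Ccne1 stood at 24.1, 29.2, 22.7 and 31.0, with Ctrl 1 beside Il33flx 1 and Ctrl 2 beside Il33flx 2, and differed by 0.01 ± 0.24. Ccne2 was the least abundant member in CPM, at 3.94, 10.8, 8.91 and 7.81, with the difference of 0.18 ± 0.47 carrying an interval of -0.94 to 1.31, the widest of the S phase genes.

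Enzymes of deoxynucleotide supply held the S phase member with the highest log2 fold change. Rrm2 (ENSMUSG00000020649, chr12:24708241-24714146 on the plus strand of GRCm38), the cell-cycle-regulated subunit of ribonucleotide reductase, stood at 105, 165, 152 and 225, a difference of 0.48 ± 0.29 (interval -0.22 to 1.18, unadjusted p 0.147, adjusted p 0.995, edgeR). Ctrl 1 was low, Il33flx 2 high, and the other 2 libraries crossed. The partner subunit Rrm1 stood at 242, 288, 263 and 312 and differed by 0.12 ± 0.19. Tyms, which makes thymidylate, stood at 65.9, 62.1, 61.5 and 84.4, and Tk1, which salvages thymidine, at 76.3, 72.7, 70.5 and 97.9. Both had 3 libraries close together and a higher Il33flx 2, with differences of 0.19 ± 0.22 and 0.18 ± 0.22. Pcna, the sliding clamp of DNA polymerases, stood at 95.8, 112, 102 and 124 and differed by 0.12 ± 0.19. Uhrf1, which carries DNA methylation through replication, stood at 240, 235, 213 and 240, with Il33flx 1 alone lower, and differed by -0.07 ± 0.17.

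Set side by side as sums, the classes differed in how far libraries lay apart. The 24 mitotic genes summed to 2155, 2671, 2470 and 3256 CPM, and the 17 S phase genes to 3397, 3465, 3234 and 3740. Both sums were highest in Il33flx 2, while Ctrl 1 was lowest for mitotic genes and Il33flx 1 for S phase genes. The mitotic over S phase ratio of these sums was 0.634, 0.771, 0.764 and 0.871. Ctrl 2 and Il33flx 1 were nearly equal, and the libraries at either end belonged to different groups. The SD between libraries of a group in the class's median log2 level was 0.241 for mitotic and 0.139 for S phase genes. The median log2 fold changes of 0.24 and 0.11 were thus about as large as, or below, this spread. In the mean log2 level, mitotic minus S phase genes gave -0.56, -0.31, -0.29 and -0.12, where Ctrl 2 and Il33flx 1 were again close but in the opposite order. Since the members were chosen with earlier results of these data known, no p was computed for a class.

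In the class medians, the Il33flx libraries lay further apart than the groups, whose log2 fold change was 0.24 for mitotic and 0.11 for S phase genes. Il33flx 2 exceeded Il33flx 1 in 40 of the 42 members (95.2%), against 49.2% of all genes, by a median of 0.41 on the log2 scale for mitotic and 0.25 for S phase genes. The level in Il33flx 2 was 1.55 times that in Il33flx 1 for Mki67, 1.53 times for Cenpe, 1.49 times for Cdk1 and Rrm2 and 1.45 times for Birc5. Bub1, at 0.981 times, and Ccne2, at 0.876 times, were the only members not higher. Between the Ctrl libraries the members were more unequal. The level in Ctrl 2 was 3.25 times that in Ctrl 1 for Kif11, 3.20 times for Bub1, 2.77 times for Cenpe, 2.74 times for Ccne2 and 2.41 times for Top2a. It was 1.94 times for Nusap1, 1.61 times for Ccnb2, 1.58 times for Rrm2, 1.49 times for Cenpf, 1.47 times for Mcm4, 1.46 times for Birc5, 1.42 times for Ube2c and 1.41 times for Stmn1, ratios of the size of the Il33flx 2 excess or above it, while the median over mitotic genes was 0.19 and over S phase genes -0.02 on the log2 scale. All 42 genes had their lowest value in Ctrl 1 (21 genes) or Il33flx 1 (21 genes), against 36.1% and 21.6% of all genes.

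**Figure D3:**
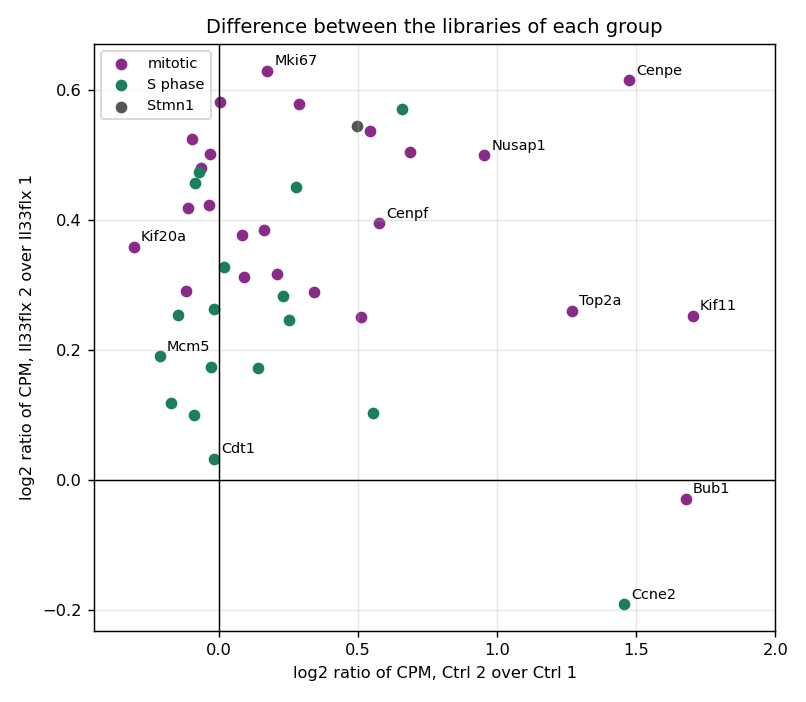
Log2 ratio of Ctrl 2 over Ctrl 1 (horizontal) against that of Il33flx 2 over Il33flx 1 (vertical) for the 42 genes, each point 1 gene. In 40 of the genes the Il33flx ratio is above 0, while Kif11, Bub1, Cenpe, Ccne2 and Top2a lie far to the right with Ctrl ratios above 2-fold.

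Markers of other cell types that the sort could hold varied between libraries too. Of 9 fixed marker lists, 0 had their highest summed level in Il33flx 2. The erythroid list summed to 7.01, 6.75, 37.2 and 15.7 CPM, and the erythroid genes Slc4a1 and Klf1 had 0 counts in Ctrl 1. Both Il33flx libraries lay above both Ctrl libraries in 8 of its 10 genes, an order that 15.4% of all genes showed. Genes of the same list are not independent. The B cell list summed to 57.2, 61.3, 124 and 104 CPM, with 8 of 8 genes in that order, and the neutrophil precursor list to 225, 117, 357 and 272 CPM, with 6 of 7. These 3 lists were highest in Il33flx 1. The T cell list, which would also mark EL4 cells, summed to 146, 96.7, 92.4 and 80.6 CPM. In 7 of its 10 genes both Il33flx libraries lay below both Ctrl libraries, an order that 14.9% of all genes showed. The NK cell list summed to 84.4, 157, 122 and 153 CPM, lowest in Ctrl 1 and highest in Ctrl 2. Of its 6 genes, 2 were lowest in Ctrl 1 and 3 were highest in Il33flx 2. The plasma cell list summed to 405, 359.7, 349.7 and 333.3 CPM, the macrophage list to 173.7, 134.5, 169.6 and 136, and the plasmacytoid DC list to 193.8, 195.7, 244 and 168.4. The conventional DC list summed to 50680, 41570, 39180 and 45770 CPM. Most of that sum was the MHC class II gene H2-Ab1, so it mainly follows this gene. The part of any of these cells in the values of the cycle genes was not tested.

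GC content moved with the differences between libraries. Among 9249 coding genes of at least 5 CPM, the log2 ratio of Ctrl 2 over Ctrl 1 was lower at higher GC content of the longest coding transcript (Pearson r = -0.66, Spearman rho = -0.67, across genes, which share the libraries and are not independent). Across the 42 members r was -0.72 and rho -0.72. The 5 members more than 2-fold higher in Ctrl 2, Kif11, Bub1, Cenpe, Ccne2 and Top2a, all belonged to the lowest quintile of these genes by GC content, where 33.7% of all genes passed that fold. This quintile held 7 mitotic members and 1 S phase member. Median GC content was 47.6% for mitotic, 51.9% for S phase and 49.97% for all genes. The log2 fold change of Il33flx over Ctrl correlated with GC at r = -0.57 across the members and -0.38 across the 9249 coding genes. For the log2 ratio of Il33flx 2 over Il33flx 1, r was 0.10 across the members and 0.22 across the coding genes. Members in the lowest GC quintile had a median log2 fold change of 0.51, against 0.17 for all genes of that quintile, and those of the next quintile 0.21 against 0.08.

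**Figure D4:**
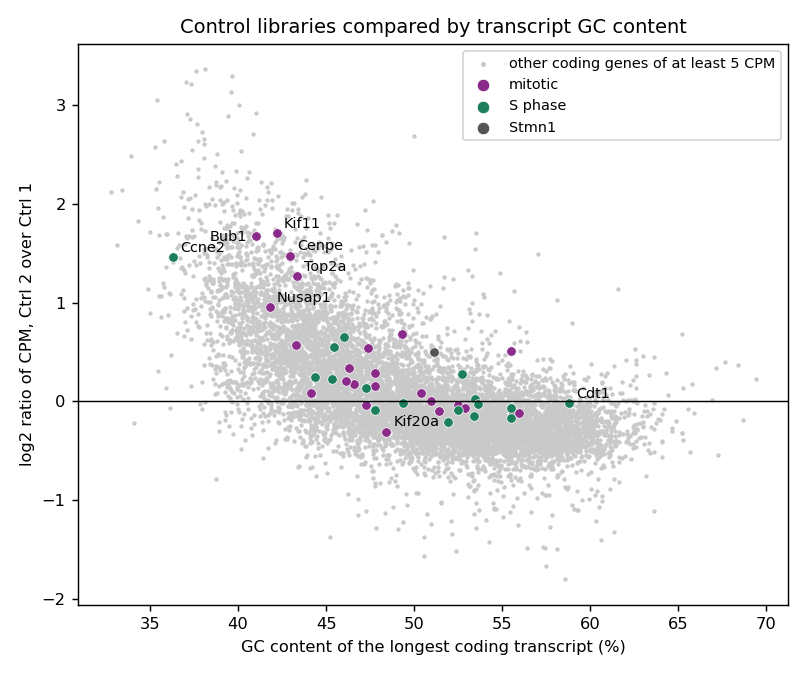
Log2 ratio of Ctrl 2 over Ctrl 1 against the GC content of the longest coding transcript in percent, for the members (coloured) and the other coding genes of at least 5 CPM (grey). The cloud slopes downward (r = -0.66 over all, -0.72 over the members), and the 5 members above 2-fold lie at its low-GC end.

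With offsets that level each library over GC content, an alternative chosen after the data had been seen, the gap in Ctrl 1 narrowed for the low-GC members. Kif11 then stood at 53.0, 107, 98.2 and 124, Bub1 at 30.2, 53.4, 51.1 and 54.6 and Ccne2 at 7.77, 7.11, 6.99 and 7.65 CPM. Ctrl 1 remained the lowest library for Kif11 and Bub1 but was the highest for Ccne2. Cenpf stood at 27.9, 28.2, 30.9 and 42.2, still with both Il33flx libraries above both Ctrl libraries. Mcm3, at 451, 478, 429 and 461, and Cdt1, at 35.5, 42.5, 40.7 and 40.2, now had overlapping groups. Ctrl 1 was then the lowest library for Cdt1, so its steady level held only without this correction. The excess in Il33flx 2 was still there, as this was the highest library for 34 of the 42 members (22 mitotic, 11 S phase), and Mki67 stood at 110, 106, 103 and 162. The median log2 fold change was 0.25 for mitotic and 0.02 for S phase genes under this correction, with 0 members called. The mitotic over S phase ratio was then 0.669, 0.745, 0.746 and 0.862.

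The class medians turned on single libraries at both ends. Without Il33flx 2 the medians were 0.04 for mitotic and -0.02 for S phase genes and 19 of 42 members lay above 0. Leaving out Ctrl 1 gave 0.13 and 0.01, and turned Kif11 to -0.035, Bub1 to -0.16 and Top2a to -0.077. Leaving out Il33flx 1 gave 0.44 and 0.22, and leaving out Ctrl 2 gave 0.32 and 0.14. In each of these fits 0 members were called, and the library left alone in its group was taken to vary like the others. Without Ctrl 2, when Ctrl 1 stood alone, the log2 fold change was 1.65 for Kif11, 1.51 for Bub1 and 1.18 for Top2a. The mitotic median lay above the S phase median in every setting run. Without Mki67, Top2a and Ccna2, which are also expressed in S phase, the mitotic median was 0.21.

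**Figure D5:**
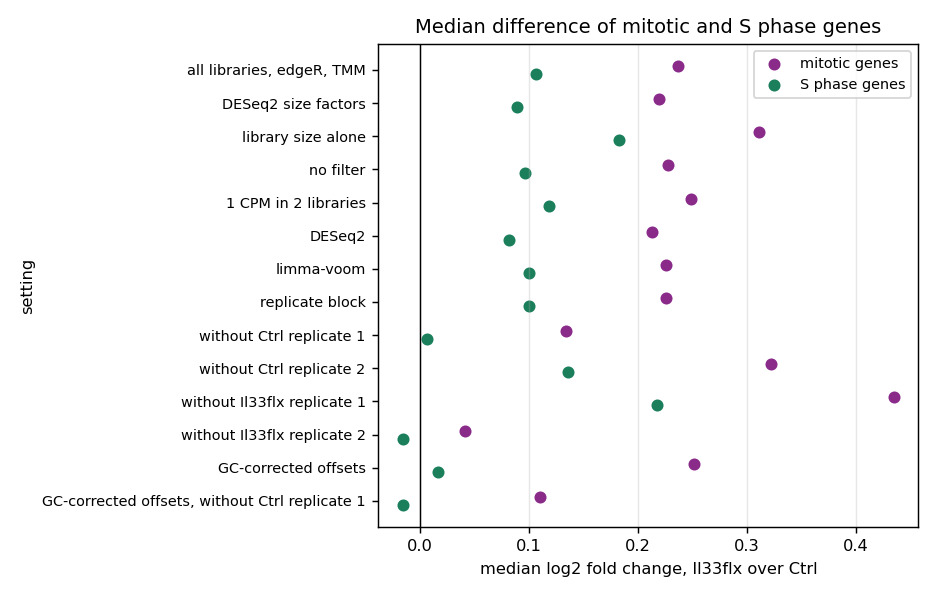
Median log2 fold change of Il33flx over Ctrl for the mitotic (purple) and S phase (green) genes with all libraries and under each other setting. The mitotic point lies to the right of the S phase point in every setting, and the mitotic point lies closest to 0 without Il33flx 2 (0.04, with S phase at -0.02).

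A wider list held 144 cell cycle genes outside the members. Of the 143 tested, 0 were called by edgeR, 110 had a log2 fold change above 0 and the median was 0.18. This median was 0.058 without Ctrl 1, 0.10 without Il33flx 2, 0.26 without Il33flx 1 and 0.35 without Ctrl 2. Cdkn2a, which encodes the inhibitors p16 and p19Arf, had 3, 0, 10 and 0 counts and was not tested. By role, the median was 0.11 for E2F, DREAM and MuvB factors, 0.09 for CDK inhibitors, 0.07 for G1 cyclins and their kinases, 0.17 for origin firing and the replisome, 0.22 for kinetochore genes, 0.25 for cohesin and condensin, 0.35 for kinesins and cytokinesis (16 of 17 above 0), 0.07 for the anaphase-promoting complex and 0.36 for the replication checkpoint. At an unadjusted p under 0.05 there were 3 of 143 genes, no larger a share than the 3.26% of all genes. E2f1, the E2F activator of S phase genes, stood at 85.3, 68.7, 45.2 and 58.5 CPM, a difference of -0.57 ± 0.22 (unadjusted p 0.0390, adjusted p 0.995, edgeR). Both Il33flx libraries were below both Ctrl libraries, an order that 14.9% of all genes showed. A link between E2f1 and the S phase members was not tested. Cdkn2b, the CDK inhibitor p15, stood at 13.98, 5.81, 4.90 and 4.504, with Ctrl 1 far above the rest, and its log2 fold change was -1.07 with and -0.30 without that library. Rad21, the cohesin subunit, stood at 7.51, 13.2, 14.7 and 24.4, with Ctrl 1 low and Il33flx 2 high. The transcripts of E2f1, Cdkn2b and Rad21 had a GC content of 58.3%, 55.9% and 44.3%, and the part of GC content in these differences was not tested.

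Other pathway genes with the smallest p in their group passed no threshold. Ndc80 and Spc25, outer kinetochore proteins, stood at 24.8, 44.5, 49.3 and 59.3 and at 8.50, 19.6, 19.0 and 24.8 CPM, and Hmmr, a spindle protein, at 17.1, 35.0, 38.1 and 48.5. Each had its lowest value in Ctrl 1 and its highest in Il33flx 2, the order seen in Cenpe and Cenpf. They were named for a small p in this comparison, so their order was no separate test of the members' pattern. Over the wider list, Il33flx 2 was highest in 75 of 143 genes, against 21.96% of all genes. Of its 19 E2F, DREAM and MuvB factors, 10 were highest in Ctrl 2 and 5 in Il33flx 2. Both Il33flx libraries lay above both Ctrl libraries in 21 of the 143 and below both in 13. All genes showed these orders at 15.4% and 14.9%. Kif14, a kinesin of cytokinesis, stood at 5.34, 5.46, 6.66 and 7.89, Fbxo5, an inhibitor of the anaphase-promoting complex, at 20.4, 20.8, 22.1 and 30.1, and Clspn, a checkpoint adaptor, at 6.65, 6.26, 7.61 and 11.6. In these the Ctrl libraries were close together and Il33flx 2 was high. Cdc7, the kinase that fires origins, stood at 6.45, 10.6, 12.01 and 11.5, with Ctrl 1 low and the Il33flx libraries close together. Smc3, a cohesin subunit, stood at 35.9, 67.0, 65.2 and 79.6, and Rad1, of the checkpoint clamp, at 5.08, 12.2, 13.5 and 13.7. The phosphatase Cdc25a stood at 45.9, 63.2, 62.0 and 63.4, and Ube2s, which extends ubiquitin chains for the anaphase-promoting complex, at 26.0, 30.5, 32.1 and 36.4. Lower in both Il33flx libraries were Ccnd3, cyclin D3, at 424, 435, 407 and 356, and the CDK inhibitor Cdkn1c at 1.26, 1.34, 0.694 and 0.847, while the repressor E2f6 stood at 20.3, 29.6, 31.2 and 35.3.

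In the authors' deposited table of their own comparison, 0.34% of the 15001 genes listed had an adjusted p under 0.05. All 42 members were listed there, with 0 called, 0 at an unadjusted p under 0.05, 33 above 0 and 9 below. That table gave Mki67 a log2 fold change of 0.38 and Top2a one of 0.39. It was made from the same 4 libraries and is not independent of the values above.

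Some counts carry a further limit. Exons of Ccna2, Cdc20, Plk1, Kif20a, Nusap1, Ube2c, Cdca8, Mcm7, Tk1, Gins2 and Ccne2 overlap a gene on the opposite strand, and without a stated strand setting the reads cannot be told apart. Ccnb1, Ccnb2, Pcna and Tyms have named pseudogenes that can share or take their reads.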

How the data were processed

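Per the submitters' processing notes, reads were handled with Trimmomatic 0.39, STAR, HTSeq and DESeq2 on GRCm38. The other versions, the annotation and the strand setting are not given in the sources used here. The deposited count table holds whole-number counts per gene for 4 libraries, not normalized by the authors. Its 5 HTSeq summary lines stayed out of library sizes and tests, and 69.9% to 72.2% of counted reads were in genes. The authors' deposited table of their comparison holds signal columns (counts divided by 1 size factor per library, checked against the counts), log2 fold changes and their errors, a score (the Wald statistic) and p-values. It was used only where named.

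Counts were fitted with edgeR 4.0.16 in R 4.3.3 (filterByExpr, TMM, quasi-likelihood F test, 2 groups, no covariate). The p-values were adjusted by Benjamini-Hochberg over all 14995 genes tested and called below 0.05. SE was obtained from the log2 fold change over the root of F. The biological coefficient of variation was 28.6%. A count of 0 allows up to 3 counts, or 0.0369 to 0.0443 CPM, for counting error only. With 2 libraries against 2 a permutation test of a single value cannot go below 0.333, so none was run. The procedure was tested on simulated data.

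Gene names came from the deposited table and GENCODE M21. Levels used merged exons, and GC content was that of the longest coding transcript. Promoter windows came from RefSeq, for 34 of the 42 members.

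The members, the wider cell cycle list and the marker lists were chosen with earlier results of these data known. The rule for named genes took members of each role, those whose groups do not overlap, and those with the smallest p or extreme level per length in each class. From the wider list it took the 2 genes with the smallest p per role, of which 1 is not reported here. All other members are given as well. The alternatives were DESeq2 size factors, library size alone, no filter, a filter of 1 CPM in 2 libraries, DESeq2 1.42.0, limma-voom (limma 3.58.1), the replicate number as a block, and each library left out. GC-corrected offsets (loess, span 0.3), alone and without Ctrl 1, and the other gene length were added after the data had been seen.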

Additional observations from a re-analysis of the deposited data

How the results depend on the processing

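No member and no gene of the wider list was called under any of the 13 alternatives, and the medians of all genes tested stayed between -0.01 and 0.09. Over all genes, edgeR called 1 higher and 0 lower. Library size alone, no filter and limma-voom each called 0 higher, DESeq2 29 higher and 20 lower, GC offsets without Ctrl 1 18 higher and 17 lower, and leaving out single libraries 0 to 19 higher and 0 to 19 lower. With the replicate number as a block, 19 were called higher and 14 lower, and 3 members (Kif11, Nusap1 and Cenpe) had an unadjusted p under 0.05. The share of all genes under that p is not given for this or any other alternative. Counts of members under it therefore have no background to be read against. The labels do not say if libraries of the same number were handled together. Over all tested genes, the deviations of Ctrl 1 and Il33flx 1 from their group means correlated at -0.032. This single value cannot decide it, because differences within 1 group, such as that with GC content in Ctrl, also enter it. Leaving out single libraries, 0 to 12 members had an unadjusted p under 0.05 and 19 to 38 lay above 0.

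Some members changed sign. DESeq2 size factors gave Cdc20 -0.0055 and Ccne1 -0.0068, DESeq2 Cdc20 -0.012 and Ccne1 -0.013, the block Cdc20 -0.0022 and Ccne1 -0.00014, and limma-voom Cdc20 -0.0022. Library size alone gave Kif20a 0.032, Mcm7 0.034, Uhrf1 0.011 and Cdt1 0.049. GC offsets gave Ccnb1 -0.11, Kif23 -0.038, Mcm6 -0.013, Mcm7 0.016, Pcna -0.035, Rrm1 -0.070, Cdt1 0.052 and Ccne2 -0.022, and without Ctrl 1 Top2a -0.032, Bub1 -0.016, Kif20a 0.10, Kif23 -0.095, Mcm4 -0.028, Mcm6 -0.016 and Ccne1 -0.16. With each library left out in turn, further members changed sign. Those that did so without Ctrl 1 had ranges of Top2a -0.077 to 1.18, Bub1 -0.16 to 1.51, Kif11 -0.035 to 1.65, Kif20a -0.21 to 0.12, Kif23 -0.085 to 0.24, Mcm2 -0.18 to 0.0031, Mcm4 -0.024 to 0.52, Mcm5 -0.20 to 0.024, Mcm6 -3.0e-05 to 0.14, Mcm7 -0.15 to 0.076, Ccne1 -0.20 to 0.22 and Ccne2 -0.36 to 1.08. Those that did so without Ctrl 2 or Il33flx 1 and not without Ctrl 1 had ranges of Cdc20 -0.18 to 0.20, Plk1 -0.091 to 0.17 and Uhrf1 -0.13 to 0.016. The others, which did so without Il33flx 2, had ranges of Ccnb1 -0.034 to 0.25, Bub1b -0.090 to 0.26, Aurka -0.043 to 0.45, Aurkb -0.096 to 0.38, Cenpa -0.066 to 0.33, Cdca8 -0.032 to 0.42, Cdca3 -0.15 to 0.40, Pcna -0.0018 to 0.25, Tyms -0.027 to 0.40, Tk1 -0.049 to 0.39, Gins2 -0.0034 to 0.29 and Cdc6 -0.0013 to 0.23. The cause was not tested. With 2 libraries a group, a 2-fold change was within the interval of 11 members.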
